A study of Mus musculus with 16 samples.

Results

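The data described here are 4 of the 16 arrays of a time course in TUBO cells, namely the 2 samples treated with an inhibitor of miR-135b (anti-miR-135b) and the 2 treated with a control inhibitor that were taken at 24 h. They were chosen by their titles, which give the inhibitor, the time and a sample number. TUBO cells were derived from a mammary carcinoma of the BALB-neuT mouse, a strain whose activated rat ErbB2 (neu) transgene is driven by the mouse mammary tumour virus promoter. The anti-miR-135b samples, numbered 11 and 12, received 200 nM of a hairpin inhibitor directed at miR-135b. The control samples, numbered 2 and 3 and labelled scrambled, received 200 nM of a negative control hairpin. Both arms were transfected with Lipofectamine and grown in medium with serum, and RNA was hybridised to Illumina mouse bead arrays. The 12 remaining arrays were the same arms at 48 h and 72 h, with 3 samples in each. A single line was used, and the labels do not say whether the samples of a group came from separate cultures, so the p-values measure the spread between these samples.

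miR-135b is a small RNA that guides Argonaute proteins to matching sites in messenger RNAs, whose translation and stability it lowers. A hairpin inhibitor is a synthetic RNA that binds the mature microRNA, so that transcripts held down by it can accumulate. Cells can also respond to foreign RNA itself. RNA sensors such as RIG-I are known to induce interferon-stimulated genes. The sensor PKR is known to slow translation through phosphorylation of eIF2 alpha. That favours synthesis of the transcription factor ATF4 and expression of its amino acid and stress genes.

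The position of the arrays limits every comparison between the arms at 24 h. Both control samples lay on the first of 2 chips, with the 48 h samples, and both anti-miR-135b samples lay on the second chip, with the 72 h samples. Chip and inhibitor therefore cannot be told apart at 24 h. Before normalization the control arrays had median probe intensities of 295.3 and 281.2 and the anti-miR-135b arrays 346.8 and 311.9, so that the anti-miR-135b arrays were the brighter. Values below are log2 intensities after background correction and quantile normalization, and each difference is the anti-miR-135b mean less the control mean. The controls differed from each other by a median of 0.319 over the tested probes and the anti-miR-135b samples by 0.228. Control sample 2 correlated with anti-miR-135b sample 11 across probes (r = 0.97) more closely than with control sample 3 (r = 0.951), a description over probes of shared arrays.

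Markers of mammary epithelium were bright in all 4 arrays. Of 13 such markers with a probe, 11 passed the filter on signal, which kept the brighter probes of the table, those with a 16-array mean past 7.1. Krt8, a keratin of simple epithelium, measured 13.25 and 13.45 in the controls and 13.20 and 13.01 under anti-miR-135b. Markers of other cells were mostly below the filter, which 2 of 12 leukocyte, 3 of 13 fibroblast and endothelial, 3 of 7 adipocyte and 2 of 5 basal markers passed. The leukocyte markers that passed were the dim Nkg7 and the bright Cd14, the co-receptor for lipopolysaccharide, which measured 14.29 and 14.62 in the controls and 14.40 and 14.79 under anti-miR-135b. The pan-leukocyte gene Ptprc stayed below the filter, at 6.30 and 6.83 against 6.55 and 6.73. List levels (the median over tested members in an array) of mammary epithelium were 11.32 and 11.86 in the controls and 11.45 and 11.58 under anti-miR-135b, so the arms overlapped. In bulk RNA a change in fewer cells and a smaller change in all cells cannot be told apart.

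At 24 h no probe passed the test. The largest differences were those of genes of several kinds, among them Chac1, Sqstm1, Pik3r1, Ptpn12, H1f2 and Btg1, described below. With limma, 0 of 12848 probes (0%) had an adjusted p under 0.05, in either direction. Without adjustment 521 probes had a p under 0.05, with anti-miR-135b above control in 322 (2.51%) and below it in 199 (1.55%). At least 2-fold higher were 51 probes (0.397%), for 46 named genes, and at least 2-fold lower were 9 (0.07%). Among the 51 were 6 interferon-stimulated genes, 3 genes of the ATF4 response, 3 immediate early genes and 2 p53 target genes, and 20 of them were in any of the 35 lists examined. The arms did not overlap in 2103 probes (16.4%) that were higher and 2119 (16.5%) that were lower. The standard error of a difference had a median of 0.281. With 2 samples a side, the 6 possible arrangements allow no exact two-sided p below 0.333.

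Pairing of the arrays changed this count. The labels state no pairs, and the fit above uses none. When arrays were paired in the order of their sample numbers within each group (2 with 11, 3 with 12 and so on), an alternative chosen after the data were seen, 12 probes (0.0934%) had a limma adjusted p under 0.05, the lowest at 0.0211, with 11 higher and 1 lower under anti-miR-135b. The higher ones were Rab32, a small GTPase of lysosome-related organelles, Ciart, a repressor of the circadian clock, and Gsta1, Ptpn12, Fos, H1f2, Sqstm1, Cxcl10, Cdc42ep3, Bst2 and Chac1, and the lower one was Pik3r1. When arrays were paired by their position on the chips, 0 passed and 637 had an unadjusted limma p under 0.05. Pairing by position forms the same pairs at 24 h. Outside 24 h it joins each 72 h array to a 48 h array of the same arm, and so forms no pairs between arms there. Statements below that a gene did not pass refer to the unpaired fit.

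**Figure D1:**
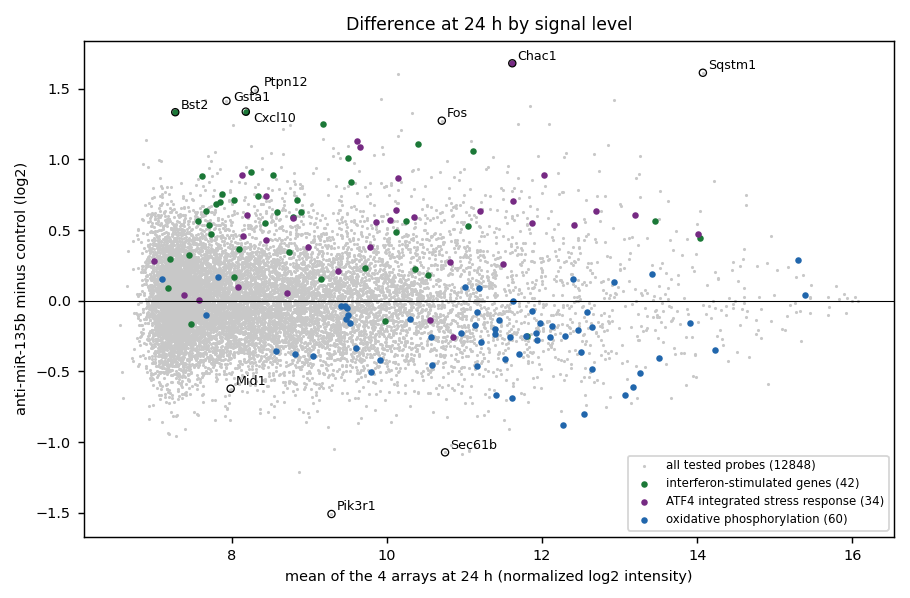
Difference between the arms at 24 h (anti-miR-135b minus control, log2, vertical axis) against the mean normalized log2 intensity of the 4 arrays (horizontal axis), with 1 point for each of the 12848 tested probes and the members of 3 lists in colour. Chac1 (1.68) and Sqstm1 (1.61) had the highest differences among the ringed genes and Pik3r1 (-1.51) the lowest, and the median over all tested probes was -0.007.

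Of the interferon-stimulated genes, most had higher values under anti-miR-135b, with 39 of 42 tested members above 0 and a median difference of 0.57, where 49.1% of all tested probes were above 0. None passed the adjusted test. At an unadjusted p under 0.05, 12 members were higher (2.51% of all probes were) and 0 lower, and in 33 every anti-miR-135b value lay above both controls (16.4% of all probes). The 42 were those past the signal filter of 54 with a probe, of 60 listed, and over all 54 the median was 0.48 with 44 higher. Lists were chosen with earlier results of these data in view, so their direction is a description.

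Cxcl10, a chemokine that attracts T cells, measured 7.37 and 7.64 in control samples 2 and 3 and 8.24 and 9.45 in anti-miR-135b samples 11 and 12. Both treated samples were above both controls, and sample 12 stood well above sample 11. The difference was 1.34 (SE 0.35), or 2.53-fold, with a limma adjusted p of 1. Bst2, which encodes tetherin, a membrane protein that holds budding virus on the cell, measured 6.32 and 6.88 in the controls and 8.01 and 7.86 under anti-miR-135b. Here the treated samples were close to each other, and the control values lay below the filter value of 7.1. Its difference was 1.33 (SE 0.38).

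The antiviral genes Ifit2 and Ifit3 were higher by 0.88 (SE 0.27) and 0.91 (SE 0.29). Ifit3 was also higher in both of its other probes, and the other probe of Ifit2, below the filter, gave 0.21. Tor3a, an interferon-inducible ATPase of the torsin family, measured 9.85 in both controls and 10.83 and 11.08 in the treated samples, a difference of 1.10 (SE 0.41), while its 2 other probes, both dimmer, gave 0.28 and 0.34. Of these genes it was the only one whose probe lay above the upper quartile of signal. Other members, named after their values were seen, included Rsad2, which encodes the antiviral enzyme viperin (1.25), and Usp18, a protease that removes the ubiquitin-like protein ISG15 from its targets and restrains interferon receptor signalling (1.01).

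By role, all 5 tested members of the OAS family, of 7 with a probe, were higher (0.30 to 1.06). They make an activator of the RNA-degrading enzyme RNase L or are related to those that do. All 8 tested antiviral effectors (0.22 to 1.33), of 11 with a probe, and all 6 immunity GTPases (0.09 to 0.63) were also higher. These counts leave out members below the filter, so they do not give the direction of a whole family. The filter used the mean of all 16 arrays, the treated ones among them. A dim member with high treated values therefore passed it more readily than one with low treated values. In the whole list, 10 of 54 members with a probe were lower, against 3 of the 42 tested. The 5 tested nucleic acid sensors were higher by 0.17 to 0.68, with Ddx58, the gene of RIG-I, at 0.23 and overlapping arms. Of the 4 transcription factors of the pathway, Irf9, a subunit of the interferon-activated complex ISGF3, differed by -0.14 (0.07 under median scaling) and the other 3 were above 0. The interferon genes with a probe were all below the filter. Genes of interferon receptors and their kinases stood apart less, with 7 of 8 tested members above 0. Their median was 0.20 (0.06 to 0.27 when a sample was left out). In 1 of the 8 the arms did not overlap (16.4% of all probes were higher without overlap), the receptor-associated kinase gene Tyk2 (0.50, SE 0.30). Class I antigen presentation genes had a median of 0.05 with 11 of 16 above 0. Across these lists, no member passed at 24 h.

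The promoters of 3 interferon genes named above are shown because they carry the element through which ISGF3 is known to act. The search covered the 250 bases before the transcription start in RefSeq (GRCm38.p6) on both strands for its core, GAAA, any 2 bases, GAAA. It was found in 16 of 38 members with a promoter sequence (42.1%) and in 936 of 27025 genes (3.46%). Capitals mark the match nearest the transcription start, and sequences are written 5′ to 3′ on the gene's strand. For Bst2 and Ifit3, 2 matches each were counted, and in Bst2 another match overlaps the marked one.
Cxcl10, chr5:92349063-92349132, minus strand, match 203 bases upstream: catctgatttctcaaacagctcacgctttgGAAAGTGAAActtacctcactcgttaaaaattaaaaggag
Bst2, chr8:71537557-71537626, minus strand, match 114 bases upstream: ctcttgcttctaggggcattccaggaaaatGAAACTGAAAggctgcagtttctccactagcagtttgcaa
Ifit3, chr19:34583377-34583446, plus strand, match on the other strand 112 bases upstream: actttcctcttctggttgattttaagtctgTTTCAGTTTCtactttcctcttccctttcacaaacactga
The 12 tested members with a match had a median difference of 0.68, all above 0, and the 19 with a promoter sequence and no match had a median of 0.47, with 17 above 0. A match is a description of these letters and no evidence of binding.

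ATF4 target genes formed the other list that stood high, with 32 of 34 tested members above 0 and a median of 0.55. All tested probes had 49.1% above 0. At an unadjusted p under 0.05, 8 were higher (2.51% of all probes were) and 0 lower, and in 23 the treated samples lay above both controls (16.4% of all probes). Without control sample 2 the median was 0.34. None passed the adjusted test. Over all 40 members with a probe the median was 0.50, with 34 higher.

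Chac1, an enzyme that degrades glutathione and a late ATF4 target, had the largest difference of the tested list. It measured 11.11 and 10.44 in the controls and 12.34 and 12.56 under anti-miR-135b. The gap between the arms was wider than the spread within either of them. The difference was 1.68 (SE 0.42), or 3.2-fold, with a limma adjusted p of 1. Slc3a2, the heavy chain shared by several amino acid transporters, measured 8.99 and 9.23 in the controls and 9.92 and 10.48 in the treated samples, a difference of 1.09 (SE 0.27).

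Ddit3, which encodes the transcription factor CHOP, was higher by 1.13 (SE 0.42), with 9.29 and 8.80 against 9.85 and 10.51. Its other tested probe was higher by 0.68. Ppp1r15a, which directs a phosphatase to eIF2 alpha and restores translation, measured 9.76 and 9.65 in the controls and 9.97 and 11.17 under anti-miR-135b, so that most of its difference of 0.87 (SE 0.36) came from sample 12. Gars, the glycyl-tRNA synthetase gene, was higher by 0.64 (SE 0.27).

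All 5 tested amino acid transporters, of 6 with a probe, were above 0 (0.26 to 1.09). Their arms did not overlap, where 16.4% of all probes were higher without overlap. Of 7 tested tRNA synthetase genes (9 with a probe), 6 were above 0. Of 6 tested genes of serine, one-carbon and asparagine synthesis (7 with a probe), 5 were. The exceptions were Sars (-0.14) and Psat1, an enzyme of serine synthesis (-0.26), which were at 0.15 and 0.03 when arrays were scaled to a common median. All 6 feedback and stress effectors were above 0, from 0.01 in Sesn2 to 1.68 in Chac1. Below the filter, the means of Slc7a3, Yars, Cars and Psph were lower under anti-miR-135b and those of Cth and Pck2 higher. Atf4 itself differed by 0.38 (SE 0.29) with overlapping arms. Chaperones of the endoplasmic reticulum were less uniform by member, with 12 of 20 above 0 and a median of 0.15 (-0.02 to 0.17 when a sample was left out). Among them Sec61b, a subunit of the translocon through which proteins enter the endoplasmic reticulum, had the largest difference, at -1.07 (SE 0.32).

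The core of the composite element bound by ATF4 with C/EBP proteins, TGATGNAA, was present in 11 of 33 list members with a promoter sequence (33.3%) and in 3.91% of all genes, in the same window and on both strands. The promoters are printed for the member with the largest difference and for a tRNA synthetase gene.
Chac1, chr2:119351019-119351086, plus strand, match on the other strand 185 bases upstream: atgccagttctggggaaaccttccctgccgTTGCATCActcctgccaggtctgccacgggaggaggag
Gars, chr6:55037941-55038000, plus strand, match on the other strand 22 bases upstream: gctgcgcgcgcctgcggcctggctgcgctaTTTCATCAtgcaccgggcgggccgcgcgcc
The 10 tested members with a match had a median difference of 0.59 and the 20 without had 0.47.

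**Figure D2:**
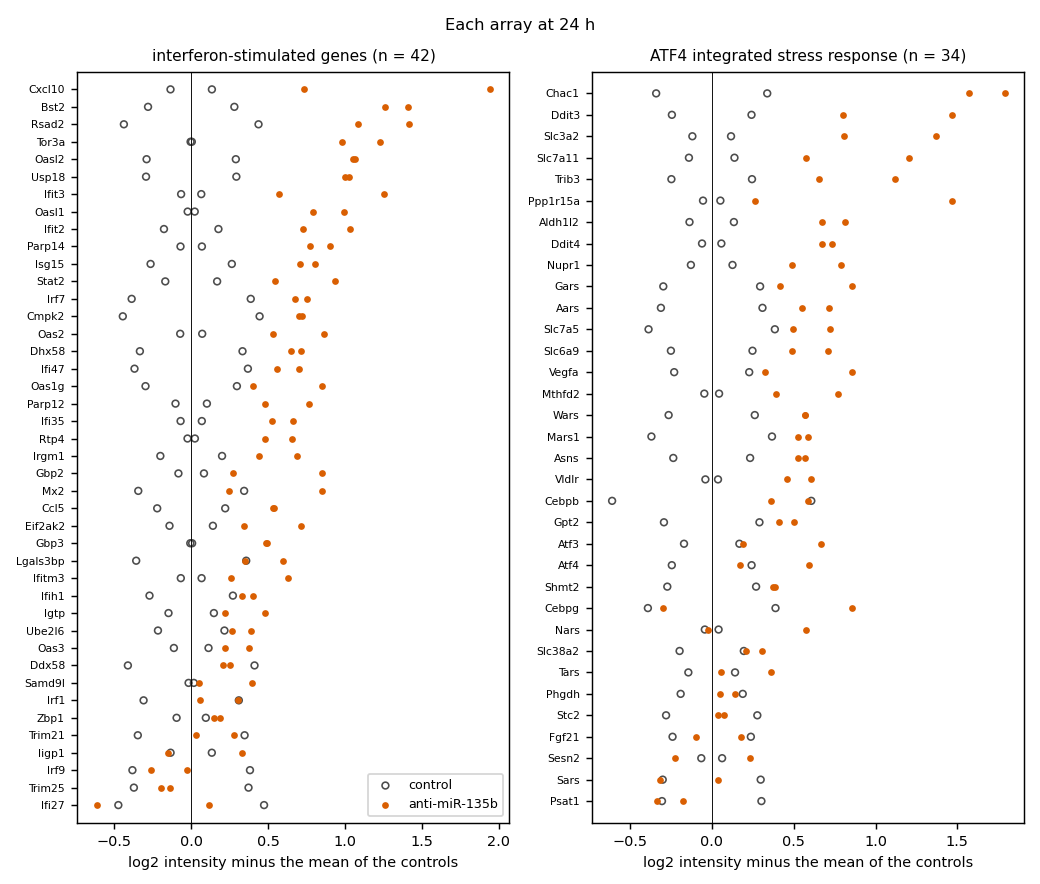
Each tested member of the interferon-stimulated (42) and ATF4 (34) lists in the 4 arrays at 24 h, as log2 intensity minus the mean of the controls (horizontal axis), with open circles for control and filled circles for anti-miR-135b. In 33 interferon and 23 ATF4 members both filled circles lie to the right of both open circles, Chac1 at the far right of its panel. The same held for 16.4% of all tested probes.

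Setting the 24 h samples against the other arrays of their own chip gives differences in which the chip is shared. The anti-miR-135b samples were compared with both arms at 72 h, and the control samples with both arms at 48 h. In these contrasts time and array position cannot be told apart, and each shares its 24 h samples with the comparison above. In the first, 824 probes (6.41%) were higher and 864 (6.72%) lower at a limma adjusted p under 0.05, and in the second 97 (0.755%) and 111 (0.864%). Higher calls made up 48.8% of the first and 46.6% of the second, and 64.2% and 4.86% under median scaling. These counts depend on single samples. Without anti-miR-135b sample 12 the first contrast had 180 calls in all, and without control sample 2 the second had 27.

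Within its chip, the anti-miR-135b group at 24 h had 24 of the 42 interferon-stimulated genes higher past the threshold and 1 lower. Of all probes, 6.41% were higher and 6.72% lower in that contrast. The list's median was 1.08. Within the other chip, the control group at 24 h had 1 of 42 higher, Ddx58, with a median of 0.29. There only 0.755% of all probes were higher and 0.864% lower, so the counts of the 2 contrasts have unlike backgrounds. In the ATF4 list 15 of 34 passed higher and 2 lower against the 72 h samples (median 0.64). In the control contrast 3 passed higher (median -0.14). The same shares of all probes apply to these counts. Chac1 was higher by 3.36 (SE 0.35, limma adjusted p = 2.92e-05) than both arms at 72 h, while the control samples differed from both arms at 48 h by 0.16 (SE 0.35, limma adjusted p = 0.884). Slc3a2 gave 1.36 and -0.03, and Cxcl10 gave 1.71 and 0.32. For Bst2 neither passed, at 0.33 and -0.80, the control samples lying below the 48 h arms.

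The list levels of single arrays are given next. The interferon list had levels of 8.11 and 8.53 in the 24 h controls and of 8.77 and 9.10 in the 24 h anti-miR-135b samples. The 6 arrays that shared the chip with the latter ranged from 7.29 to 8.15, and the 6 at 48 h from 7.35 to 8.77. The ATF4 list had levels of 9.42 and 9.82 in the controls and 10.03 and 10.42 in the treated samples, above all 14 other arrays (8.84 to 9.82). The 72 h samples, on the chip of the treated samples, ranged from 8.84 to 9.32, and the 48 h samples, on the other chip, from 9.02 to 9.66. Time and chip cannot be told apart between these samples. Of 29 lists with at least 10 tested members, 5 had both anti-miR-135b samples above all 14 other arrays, and 1, oxidative phosphorylation, had both below. The 5 were the interferon, ATF4, endoplasmic reticulum chaperone, ribosome biogenesis and Myc, and small RNA lists. The interferon list met this narrowly, at 8.769 against 8.768 in anti-miR-135b sample 15 at 48 h. In the small RNA list the median difference between the arms was only 0.02.

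**Figure D3:**
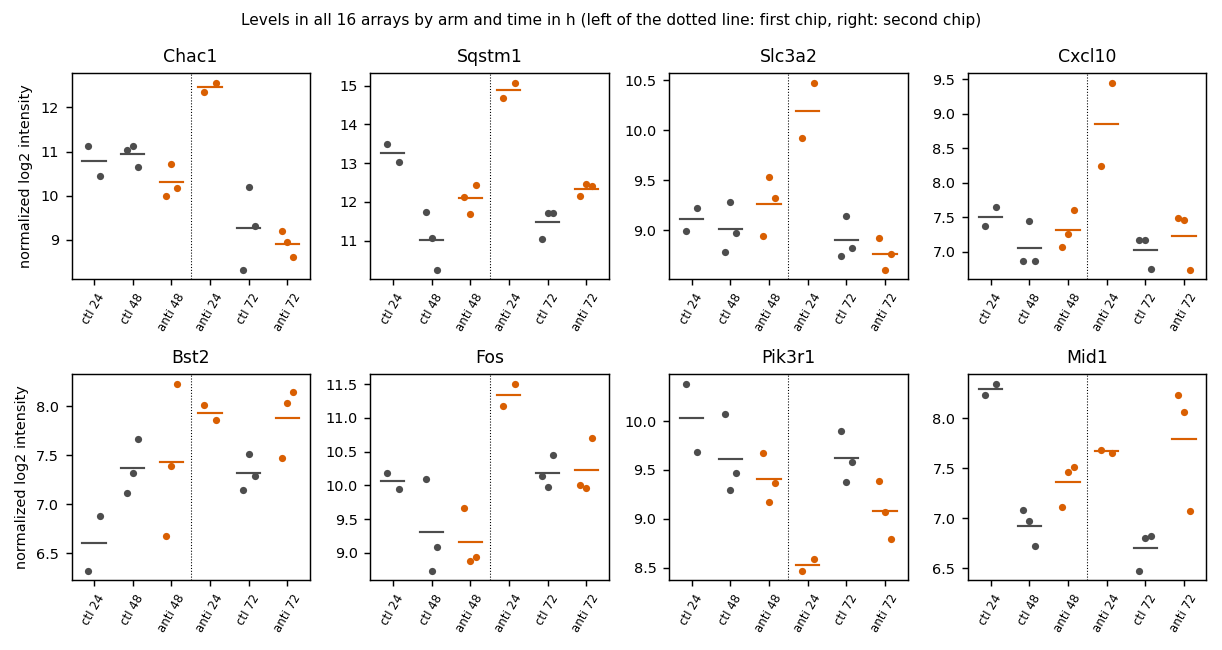
Normalized log2 intensity (vertical axis) of 8 named genes in all 16 arrays by arm and time in h, with points for arrays, bars for group means, grey for control and orange for anti-miR-135b, the first chip left of the dotted line and the second right of it. Chac1 and Sqstm1 were highest in the 24 h anti-miR-135b samples, at 12.34 and 12.56 and at 14.68 and 15.08, and Pik3r1 was lowest there, at 8.47 and 8.59.

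The genes with the smallest p-values for a higher level came from several pathways. Gsta1, an alpha-class glutathione transferase, had the smallest of all, with 7.35 and 7.10 in the controls and 8.33 and 8.94 under anti-miR-135b. The treated samples were clear of the controls, although this probe's signal ranked only at the 52.5 percentile. At 48 h and 72 h its values ranged from 6.44 to 7.36, mostly below the filter value of 7.1. The probe passed that filter only through its treated values at 24 h. The difference was 1.41 (SE 0.24, limma adjusted p = 0.186). Sqstm1, which encodes p62, an adaptor between ubiquitinated cargo and autophagosomes, was among the brightest genes, with 13.50 and 13.03 against 14.68 and 15.08. Its difference was 1.61 (SE 0.38, limma adjusted p = 0.788), and the arms were also 1.07 apart at 48 h and 0.85 at 72 h, within a chip at both times.

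Ptpn12, a cytoplasmic tyrosine phosphatase that restrains signalling from receptor kinases, measured 8.02 and 7.07 in the controls and 8.96 and 9.12 in the treated samples. All 5 of its probes were higher, by 0.74 to 1.49. Nt5e, the ectoenzyme CD73 that makes adenosine outside the cell, was higher by 1.09 (SE 0.24), with its other probe at 0.84. Btg1, an antiproliferative gene, was higher in each of 4 probes (0.40 to 1.42). The others with the smallest p-values were Ceacam13 (0.97, with dimmer probes at 0.13 and 0.12), Kansl1l (1.24), Phf13 (0.99) and Nipbl, the cohesin loader (1.08). A brighter probe of Phf13 gave -0.03 and a dimmer one of Nipbl 0.12.

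Among probes above the upper quartile of signal, large differences were those of Fos (1.27, SE 0.38), the linker histone gene H1f2 (1.43, SE 0.46), the ribosomal RNA processing gene Rrp12 (1.33, SE 0.47), the Cdc42 effector gene Cdc42ep3 (1.25, SE 0.36), the transcriptional repressor gene Nfil3 (1.21, SE 0.37), the Polycomb gene Pcgf5 (1.17, SE 0.38) and the ubiquitin-conjugating enzyme gene Ube2g1 (1.13, SE 0.44). For H1f2 the controls were far apart (8.67 and 9.75) and the treated samples close (10.56 and 10.71), and for Rrp12 likewise (10.39 and 8.92 against 10.82 and 11.15). The 2 other probes of Ube2g1 differed by 0.24 and 0.08. None of these genes passed the adjusted test.

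Pik3r1, which encodes the p85 alpha subunit that holds PI3 kinase inactive and recruits it to receptors, had the lowest value of all named genes. It measured 10.38 and 9.69 in the controls and 8.47 and 8.59 under anti-miR-135b. Both treated samples were more than 1 log2 unit below both controls. The difference was -1.51 (SE 0.30, limma adjusted p = 0.446), a second bright probe gave -1.05 (SE 0.29), and the third, at the 1 percentile of signal, gave -0.20. The arms differed by -0.21 at 48 h and -0.54 at 72 h. Against the 72 h arms of the same chip the anti-miR-135b samples differed by -0.82 (limma adjusted p = 0.0349).

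Other lower genes with small p-values were Mrps25 of the mitochondrial ribosome (-0.94, with other probes at -0.04 and -0.14), the exocyst gene Exoc2 (-0.79), the non-canonical Wnt ligand gene Wnt5a (-0.96), the ESCRT ATPase gene Vps4b (-0.72), Ppm1j (-0.80), Timd4 (-0.85), Bex3 (-0.82) and Cdkl1 (-0.82). The Wnt5a probe passed the signal filter only through its control values at 24 h, 7.52 and 8.00. Clspn, a checkpoint adaptor (-0.84), had 3 other probes, all of them above 0. Among bright probes the lower values were these. Stx7, a SNARE of late endosomes, measured 12.13 and 11.04 in the controls and 10.48 and 10.57 under anti-miR-135b (-1.06, SE 0.33). Lamtor4, a subunit of the Ragulator complex on lysosomes, gave -1.04 (SE 0.34), the mitophagy receptor gene Fundc1 -0.90 (SE 0.32, with other probes at -0.72 and 0.24), the mitochondrial arginyl-tRNA synthetase gene Rars2 -0.86 (SE 0.27, with other probes at -0.28, -0.13 and -0.40) and the chromatin protein gene Hmgn3 -1.08 (SE 0.43). For Stx7, Lamtor4 and Hmgn3 control sample 2 stood more than 1 log2 unit above control sample 3.

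Inflammatory, immediate early and p53 target genes were higher in part. Of 24 tested genes of the NF-kB list, 22 were above 0 (49.1% of all probes) with a median of 0.35. That median was 0.23 without control sample 2, 0.54 without control sample 3, 0.57 without anti-miR-135b sample 11 and 0.19 without sample 12. At an unadjusted p under 0.05, 2 were higher (2.51% of all probes were), the cytokine gene Il1a (0.94, SE 0.37) and the co-regulator gene Bcl3 (0.63, SE 0.29). All 12 tested cytokine and chemokine genes were above 0, and in 3 of them the treated samples lay above both controls (16.4% of all probes). Cxcl2, a chemokine for neutrophils, measured 8.86 and 9.77 in the controls and 9.69 and 11.00 in the treated samples. The value of Ccl2, a chemokine for monocytes, went from 0.69 to -0.04 without anti-miR-135b sample 12. The list's level was 8.69 and 9.00 in the controls and 8.93 and 9.33 in the treated samples, so that the arms overlapped.

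Immediate early genes had a median of 0.19 (0.36 without control sample 3) with 17 of 21 above 0. In Fos the controls were at 10.19 and 9.95 and the treated samples at 11.17 and 11.51. The treated samples exceeded both controls by nearly 1 log2 unit or more. Junb, its partner in the AP-1 dimer, differed by 1.04 (SE 0.34), the MAP kinase phosphatase gene Dusp1 by 1.05 (SE 0.33) and the zinc finger gene Egr1 by 0.78 (SE 0.37). Of p53 targets, 15 of 20 were above 0 with a median of 0.26, which was 0.09 without control sample 2 and 0.53 without control sample 3. Cdkn1a, the cell cycle inhibitor p21, measured 12.87 and 12.68 against 13.73 and 13.56, a difference of 0.87 (SE 0.29), and its other 2 probes were higher by 0.60 and 0.37. Plk2 (0.85), Plk3 (1.09) and Bbc3, the death gene that encodes PUMA (1.09), were higher, while the death receptor gene Tnfrsf10b was lower (-0.59), with its 4 other probes at 0.04, 0.38, 0.43 and -0.44. For Bbc3 1 of 2 other probes had the opposite sign, at -0.10. The arms at 48 h and 72 h differed by less for Fos (-0.15 and 0.04) and Bbc3 (0.20 and 0.00).

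**Figure D4:**
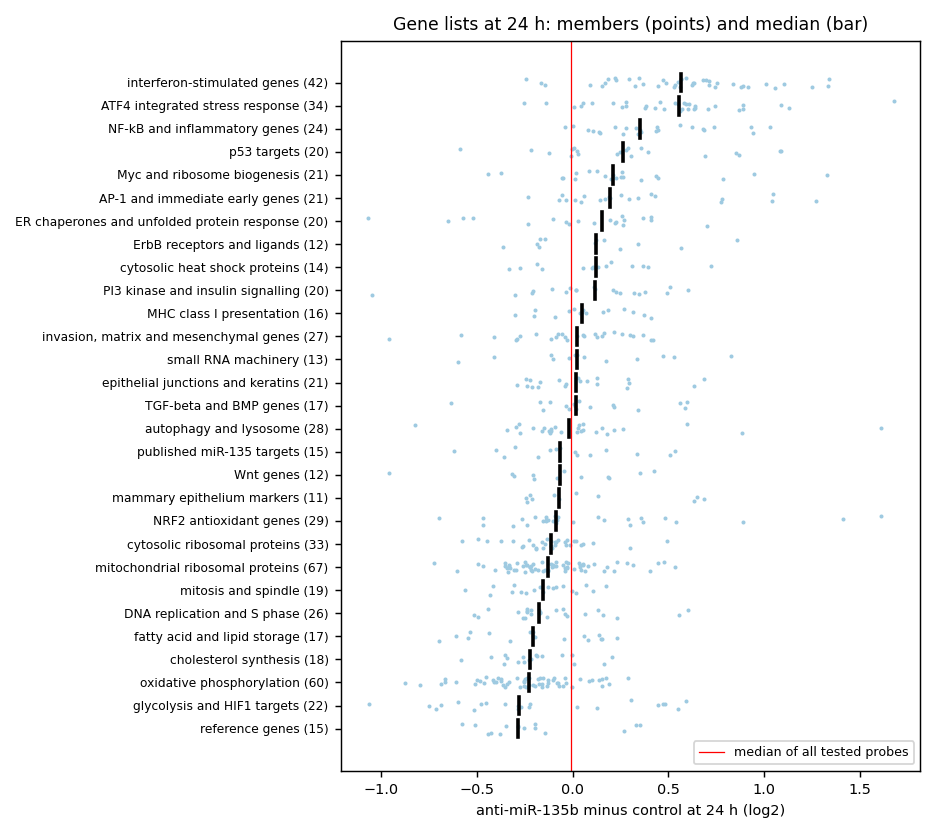
Difference between the arms at 24 h (log2, horizontal axis) for the tested members (points, number in brackets) and the median (bar) of each of the 29 lists with at least 10 tested members, the red line being the median of all 12848 tested probes (-0.007). Interferon-stimulated genes (0.57) and ATF4 genes (0.55) stood highest, and reference genes (-0.29) lowest.

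Genes of oxidative phosphorylation lay below 0 for the most part, with a median whose sign depended on the normalization. Of 60 tested genes of oxidative phosphorylation, 51 were lower, with a median of -0.23. At an unadjusted p under 0.05, 7 were lower (1.55% of all probes were) and 0 higher, and in 26 both treated samples lay below both controls (16.5% of all probes). The list's level was 11.74 and 11.78 in the controls and 11.30 and 11.45 in the treated samples. The other 12 arrays, on both chips, ranged from 11.75 to 12.08, so both treated samples were below all of them. Median scaling in place of quantile normalization moved the median of all tested probes from -0.007 to 0.121, with 67.4% above 0, and the list's median to 0.007. Relative to all tested probes the list was lower under both. Reference genes also lay lower, with 12 of 15 below 0 and a median of -0.29. That median stayed between -0.34 and -0.10 over all alternatives run. What part a difference in total signal has in these values was not tested.

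By complex, 24 of 26 tested genes of complex I were below 0, as were all 3 of complex II, all 5 of complex III, 9 of 10 of complex IV and 10 of 15 of ATP synthase. Atp5j2, a subunit of ATP synthase, measured 13.47 and 13.48 in the controls and 12.92 and 12.80 in the treated samples. The values within each arm were close. The difference was -0.61 (SE 0.21), and it was -0.995 (limma adjusted p = 0.00117) against the 72 h arms of the same chip. Cox6b1 of complex IV gave -0.80 (SE 0.31), Ndufa8 of complex I -0.69 (SE 0.26), Atp5j -0.67 (SE 0.29, with other probes at -0.55 and 0.16) and Uqcrc2 of complex III -0.88 (SE 0.38). Against the same 72 h arms, 16 of the 60 passed lower (6.72% of all probes did) and 0 higher.

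Mitochondrial ribosomal proteins (47 of 67 lower, median -0.13), cytosolic ribosomal proteins (26 of 33 lower, median -0.11) and replication genes (20 of 26 lower, median -0.18) lay below 0 by less, and their medians were 0.09, 0.09 and 0.06 under median scaling. Leaving out a sample gave -0.18 to -0.08, -0.24 to -0.02 and -0.21 to -0.06 in turn. Cholesterol synthesis genes had 15 of 18 below 0 with a median of -0.22, which was 0.02 under median scaling. Their sterol isomerase gene Ebp measured 10.23 and 10.03 in the controls and 9.50 and 9.60 in the treated samples (-0.58, SE 0.23). Within the chips, 9 of 18 members were higher past the threshold in the anti-miR-135b samples than in the 72 h arms (6.41% of all probes were) and 10 of 18 were higher in the control samples than in the 48 h arms (0.755% of all probes). NRF2 target genes, to which Gsta1 and Sqstm1 belong, had 11 of 29 above 0 and a median of -0.09 (0.10 under median scaling, and -0.13 to 0.08 when a sample was left out). Gclm, a subunit of the enzyme that starts glutathione synthesis, differed by 0.54 (SE 0.27).

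Mid1 and Mtch2, known from published work as targets of miR-135b in mammary tumour cells, were not higher at 24 h. Mid1, a ubiquitin ligase on microtubules, measured 8.24 and 8.35 in the controls and 7.68 and 7.66 under anti-miR-135b. Both treated samples were below both controls. The difference was -0.62 (SE 0.30, limma adjusted p = 1). Against the samples of their own chips, the controls were higher than the 48 h arms by 1.15 (limma adjusted p = 0.0242) and the treated samples differed from the 72 h arms by 0.43 (limma adjusted p = 0.293). For Mid1 the arms themselves differed by 0.44 at 48 h and by 1.09 at 72 h, so these comparisons pool unlike arms. The 3 probes of Mtch2, a protein of the outer mitochondrial membrane, gave -0.30, -0.49 and -0.51, none past the threshold.

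Genes published as miR-135 targets in other systems had 7 of 15 tested members above 0 and a median of -0.07, against 49.1% and -0.007 over all probes, and the median was 0.13 under median scaling and -0.25 to 0.04 when a sample was left out. With limma 0 had an adjusted and 0 an unadjusted p under 0.05. Foxo1, a transcription factor restrained by PI3 kinase signalling, measured 7.95 and 7.85 in the controls and 8.43 and 8.38 in the treated samples (0.51, SE 0.27). The treated samples lay above both controls there, and they lay below both for Mef2c (-0.40, SE 0.25), whose 2 dimmer probes both gave 0.26. No probe for miR-135b itself was in the table, so the block of the microRNA was not measured here.

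Genes that make or use small RNAs had 8 of 13 tested members above 0. Adar, which edits double-stranded RNA and is itself induced by interferon, measured 8.85 and 8.08 in the controls and 9.16 and 9.41 in the treated samples (0.83, SE 0.27), with its 2 other probes also above 0 (0.15 and 0.55). Tarbp2, a partner of Dicer, was higher by 0.53 (SE 0.23) in its brighter probe and lower in the other (-0.49), and Dgcr8, a partner of Drosha, differed by -0.60 (SE 0.31). In the epithelial lists Esrp1, a splicing regulator of epithelial cells, measured 12.55 and 12.76 in the controls and 13.18 and 13.51 under anti-miR-135b (0.69, SE 0.22), and Gata3, a transcription factor of luminal mammary cells, differed by 0.65 (SE 0.28). The epithelial junction and keratin list as a whole had 11 of 21 members above 0 and a median of 0.02 (-0.14 to 0.09 when a sample was left out).

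Whether the difference at 24 h was unlike those at 48 h and 72 h was tested as a contrast in the same fit. By limma it passed for 0 of 12848 probes (lowest adjusted p = 0.999, or 0.0968 with arrays paired by order). Without adjustment 495 had a p under 0.05, 311 of them (2.42%) with the higher difference at 24 h and 184 (1.43%) with the lower. Chac1 was among the smallest p-values, with 1.68 at 24 h, -0.63 at 48 h and -0.36 at 72 h, and a contrast of 2.18 (SE 0.49). Gsta1 (1.27, SE 0.28), Ceacam13 (0.99, SE 0.25), the homeobox gene Meis2 (1.04, SE 0.27) and Fbxo30 (1.14, SE 0.30) were higher at 24 h than later. Lower at 24 h than later were Mid1 (-1.39, SE 0.35), the retinoic acid receptor gene Rara (-1.04, SE 0.28), Eri3 (-0.82, SE 0.25), Tmem119 (-1.15, SE 0.36) and Pik3r1 (-1.13, SE 0.35). A shift between the chips would remain in this contrast, since only the 24 h difference spans both.

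The lists separate by time in size. The median of the interferon list was 0.57 at 24 h, 0.26 at 48 h and 0.28 at 72 h, with 36 of 42 members above 0 at 48 h (48.9% of all probes) and 31 at 72 h (47.7%). The ATF4 list went from 0.55 to -0.09 and -0.12, with 15 and 12 of 34 above 0. Oxidative phosphorylation was at -0.23, -0.05 and 0.00, and NF-kB at 0.35, 0.03 and 0.10. Interferon list levels of the arms overlapped at 48 h, at 7.345 to 8.768 under anti-miR-135b and 7.525 to 7.985 in the controls. They also overlapped at 72 h, at 7.481 to 8.15 against 7.294 to 7.834. The difference between times was not tested for a list.

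**Figure D5:**
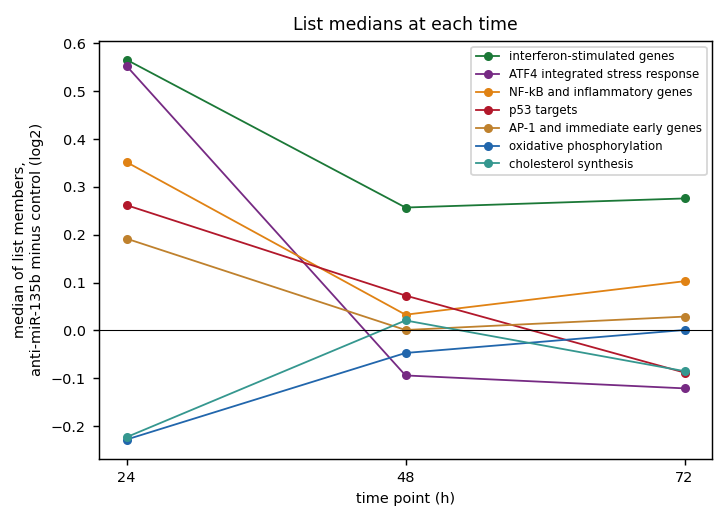
Median difference between the arms (anti-miR-135b minus control, log2, vertical axis) over the tested members of 7 lists at 24, 48 and 72 h (horizontal axis), each point from 2 or 3 arrays a side and the 24 h point across chips. The interferon list stays above 0 at each time (0.57, 0.26 and 0.28), and the ATF4 list is above 0 at 24 h only (0.55, -0.09 and -0.12). At 48 h and 72 h the interferon list levels of the arms overlapped.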

How the data were processed

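Arrays of 16 samples in 6 groups of arm and time were analysed. The intensities used, bead averages of 25697 probes, were deposited without normalization. GenomeStudio made them, per the submitters' processing notes (its version and settings: not given in the sources used here). A second table, of log2 values that the authors normalized in a way the sources used here do not state, entered as an alternative. Neither came with detection p-values, so low signal was judged by level alone.

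With limma 3.58.1 in R 4.3.3, normexp background correction (offset 50) was followed by quantile normalization, which gives all arrays 1 distribution and so removes any difference in total signal. Probes with a mean over all arrays past the median (a log2 value of 7.1) were kept, 12848 in all for 9032 named genes. Names came from the platform annotation, matched by gene ID to RefSeq for 23962 probes. A model of the 6 groups (lmFit and eBayes, 10 residual and 7.8 prior degrees of freedom) gave every contrast, two-sided, with Benjamini-Hochberg adjustment and a threshold of 0.05. The number of arrays limits the precision. The code was tested on simulated data.

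A list uses the brightest probe of each gene. The 35 lists, their members and the rules were chosen with earlier results of these data known. Named, where the arms do not overlap, were the 12 smallest p-values per direction, the 12 largest differences per direction among probes above the upper quartile of signal with an unadjusted p under 0.05, up to 5 members of each list by p, and the 5 smallest p-values per direction of the contrast with later times. Mid1 and Mtch2 were always named. Not all that the rule allows are printed. Cd14, Nkg7, Ptprc, Rsad2, Usp18, Irf9, Ddx58, Atf4, Sars, Psat1, Sesn2, Cxcl2, Ccl2, Bnip3l, Rab32 and Ciart were named after their values were seen. Promoters shown are of members so named that hold their list's motif. The alternatives were other background corrections, normalizations and filters, array weights, a fit of the 24 h samples alone, leaving out each sample, and 2 pairings of the arrays added after the data were seen (5 residual degrees of freedom).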

Additional observations from a re-analysis of the deposited data

How the results depend on the processing

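The inhibitor difference at 24 h had 0 calls under all alternatives without pairs, with 248 to 1132 probes at an unadjusted p under 0.05, and so had its contrast with later times. The contrast of anti-miR-135b samples with the 72 h arms (1688 calls) had 901 under median scaling, where the share of higher calls went from 48.8% to 64.2%, and 2849 with array weights. Leaving out a sample gave 180 (anti-miR-135b sample 12) to 1760 calls, and 806 without sample 11. The contrast of controls with the 48 h arms (208 calls) had 473 under median scaling, where that share went from 46.6% to 4.86%. Leaving out a sample gave 27 (control sample 2) to 263 calls, with 32 without control sample 3 and 114 without control sample 5 at 48 h. Of 35 list medians, 19 were above 0. Median scaling gave 31, and leaving out a sample 11 (control sample 2) to 21.

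The interferon list's median stayed between 0.42 and 0.74 and that of ATF4 genes between 0.34 and 0.77 over all alternatives run. Under median scaling, cholesterol synthesis turned to 0.024 and oxidative phosphorylation to 0.007, and of single genes Irf9 turned to 0.07, Psat1 to 0.034, Sars to 0.151 and Nkg7 to 0.019. Nkg7 (-0.001) also turned with an offset of 16 (0.024) and with the 24 h samples alone (0.007). Leaving out a sample gave ranges that cross 0 for Ccl2 (-0.037 to 1.408), Cd14 (-0.058 to 0.34), Ddx58 (-0.183 to 0.64), Irf9 (-0.527 to 0.238), Nkg7 (-0.421 to 0.418), Psat1 (-0.56 to 0.047), Sars (-0.437 to 0.161) and Sesn2 (-0.222 to 0.234). The cause was not tested. The replicate block by order of sample numbers, chosen after the data were seen, gave 12 calls (935 at an unadjusted p under 0.05) and 0 for the contrast with later times, and pairing by chip position 0. The labels share no number between the arms. Deviations from the group means correlated at 0.10 in the pairs at 24 h, 0.56, 0.08 and 0.50 at 48 h and 0.48, 0.14 and 0.35 at 72 h, and samples 5, 14 and 17 correlated best with another order, so the pairing is a hint from the data. Without detection p-values, probes near background, such as Gsta1, Bst2 and Ceacam13, could not be bounded.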

Other observations

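Genes of ribosome biogenesis and Myc targets had 17 of 21 tested members above 0 at 24 h (49.1% of all probes) and a median of 0.21, and 1 was higher at an unadjusted p under 0.05 (2.51% of all probes were). The median was -0.01 without control sample 2, 0.43 without control sample 3 and 0.13 without anti-miR-135b sample 12. Heatr1, a component of the complex that processes ribosomal RNA, measured 10.88 and 10.78 in the controls and 11.72 and 11.84 under anti-miR-135b, a difference of 0.95 (SE 0.53), while its 3 other probes, all dimmer, gave 0.01, -0.01 and -0.17. Ncl, which encodes nucleolin, measured 9.51 and 9.99 against 10.52 and 10.55. In these probes the treated samples lay above both controls. Against the 72 h arms of the same chip, 11 of the 21 were higher past the threshold (6.41% of all probes were) and 0 lower, with a median of 1.09. In the controls against the 48 h arms 0 passed, with a median of -0.01. The list's level was low in the 72 h arrays, at 8.445 to 9.073, against 8.894 to 10.259 at 48 h. The 24 h controls, at 9.95 and 9.92, also lay above all 72 h arrays. In autophagy and lysosome genes, 14 of 28 were above 0, among them the lysosomal protease gene Ctsl (0.89, SE 0.34), while Gabarapl1, which encodes a protein of the autophagosome membrane, differed by -0.83 (SE 0.27).

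Glycolysis and HIF-1 target genes differed more within each arm than between the arms. Their list level was 11.53 in control sample 2 and 10.38 in control sample 3, and 11.43 and 10.28 in anti-miR-135b samples 11 and 12. Bnip3l, a mitophagy receptor induced by low oxygen, measured 12.24 and 10.94 in the controls and 11.35 and 9.70 in the treated samples, and lactate dehydrogenase gene Ldha measured 14.19 and 13.83 against 13.71 and 12.93. Samples 2 and 11 lay at the same position on their chips, as did samples 3 and 12. What the position has to do with these values was not tested.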
